A study of Saccharomyces cerevisiae with 3 samples.

Results

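Glycogen and trehalose are the reserve carbohydrates of budding yeast, and the 10 genes described here encode enzymes that build them or break them down: PGM2 and UGP1 for the shared precursor, GSY1, GSY2 and GLC3 for glycogen synthesis, GPH1 for glycogen breakdown, TPS1, TPS2 and TSL1 for trehalose synthesis, and NTH1 for trehalose breakdown. They were found by locus tag among the 6174 genes of a 2-colour DNA microarray study of Saccharomyces cerevisiae, and all 10 were on the array. Every array compared the same strain with and without caspofungin, an antifungal drug that blocks synthesis of beta-1,3-glucan, the main structural polymer of the cell wall. The strain has the BY4741 background and the genotype label WSC1extMID2cyt, which holds the names of WSC1 and MID2; these encode sensors of cell wall stress at the plasma membrane. Treated and untreated cells both carried that genotype, so nothing here sets the strain against BY4741 itself, and whether it is 1 clone is not stated. A culture in YEPD, a rich glucose medium, at 24 °C was divided, and one portion stayed without drug while the other received caspofungin at 15 ng/ml; both were harvested after 2 hours. The labels number the arrays 1, 2 and 4. RNA of treated cells carried Cy3 on array 1 and Cy5 on arrays 2 and 4.

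Both reserves start from glucose 6-phosphate. Phosphoglucomutase turns it into glucose 1-phosphate and UDP-glucose pyrophosphorylase (Ugp1) makes UDP-glucose, which glycogen synthase, trehalose-6-phosphate synthase and the beta-1,3-glucan synthase that caspofungin inhibits all use as substrate. In yeast, transcripts of many of these genes are known to accumulate under heat, osmotic stress and nutrient limitation, through stress response elements bound by Msn2 and Msn4.

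All values are the deposited log ratios of treated and untreated RNA on one array, taken as base 2, so 1 unit is 2-fold. Whether treated or untreated RNA is the numerator is not given in the sources used here. Sides are therefore named only by sign, positive or negative, and a sign turned on every array would swap them throughout. RNA of treated cells carried Cy3 on array 1 only, so ratios formed by dye would turn that array alone. Which form was deposited is not given, and results with the sign of array 1 turned are printed below. Arrays 1, 2 and 4 held values for 2520, 1924 and 741 genes, and the medians in the same order were -0.20, -0.22 and 0.09. Across genes, Pearson's r was 0.58 between arrays 1 and 2 (1863 genes), 0.53 between arrays 2 and 4 (590 genes) and 0.07 between arrays 1 and 4 (616 genes). The series text describes 2 cultures, each hybridised in both dye orientations. Arrays 2 and 4 share an orientation and then came from different cultures, while the culture of array 1 was that of array 2 or that of array 4, with no label to tell them apart. BY4741 is a MATa strain. None of 4 MAT alpha markers had a value, and 3 of 6 MATa markers did, all on the negative side: STE2, the alpha-factor receptor gene, had -0.88, -1.32 and -0.18 on arrays 1, 2 and 4, BAR1 had -0.96 and -1.51 on arrays 1 and 2, and MFA2 had -1.23 on array 2. A ratio gives no level, so these values do not check the cell type, and their part in the results below was not tested.

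A value was present for 8 of the 10 genes. TPS1 was measured on all 3 arrays, GSY2, GLC3, TPS2 and UGP1 on arrays 1 and 2, and PGM2, NTH1 and GSY1 on array 1 alone. GPH1 and TSL1 had no value. On array 1, 7 of 8 measured genes were positive, with a median of 0.94, where 32.4% of all genes on that array were positive. On array 2, 3 of 5 were positive, with a median of 0.38, where 32.2% of all genes were positive. Every value other than that of TPS1 on array 4 thus comes from arrays 1 and 2. These have opposite dye orientations and may share a culture.

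**Figure D1:**
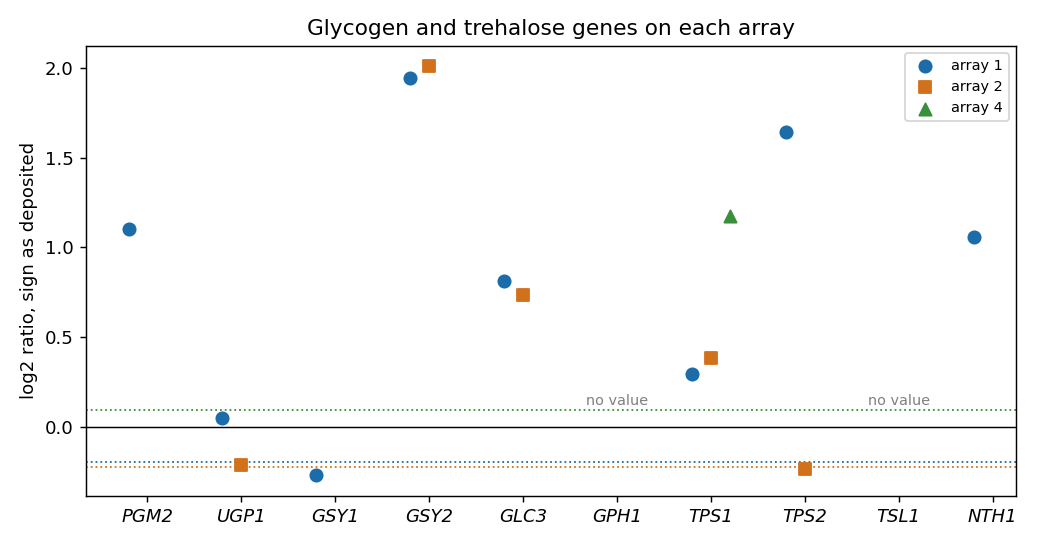
Log2 ratio (vertical axis, sign as deposited) of each of the 10 genes on array 1 (circles), array 2 (squares) and array 4 (triangle); dotted lines are the median of all genes on the array of that colour. GSY2 sits near 2 on arrays 1 and 2, TPS2 lies far apart on the same arrays (1.64 and -0.24), and GPH1 and TSL1 had no value.

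Glycogen synthesis held the largest ratio of the set. GSY2, the gene of the main glycogen synthase isoform, had 1.94 on array 1 and 2.01 on array 2. Both arrays placed it on the same side by nearly the same amount, in opposite dye orientations, above 99.2% and 99.1% of the genes measured on each. Its mean was 1.98 ± 0.05 (SD, n = 2 arrays), a 3.93-fold ratio. By the smaller of its values on arrays 1 and 2 it ranked 15 from the positive end of the 1863 genes measured on both. In limma's test over the 1899 genes with at least 2 values, in which each array counted as a replicate, GSY2 passed at an adjusted p of 0.0095. It was the only 1 of the 5 testable genes of the set to pass, where 1.79% of all genes passed on the positive side (2.53% on either side). This p is too small if both arrays came from one culture. It was 0.42 without moderation of the variances across genes, and the call was lost with the sign of array 1 turned (mean 0.03). Over the alternatives that could test it, the adjusted p ran from 1.51e-05 to 0.9986.

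GSY2 was also the only 1 of the 5 with at least 2-fold on one side on every array measured, a size reached on the positive side by 1.84% of the 1899 genes and on either side by 2.69%. GLC3, the glycogen branching enzyme gene, had 0.81 on array 1 and 0.73 on array 2. Its arrays also lay close together, 0.081 apart against 0.067 for GSY2, and the mean was 0.77 ± 0.06 (SD, n = 2 arrays), a 1.71-fold ratio. The limma test gave an adjusted p of 0.133. Without array 4, which holds no value for GLC3 but enters the estimate of the spread, the adjusted p was 0.038; arrays 1 and 2 then remain, which may share a culture. The ratio of GSY2 exceeded that of GLC3 by 1.13 on array 1 and by 1.28 on array 2, a difference of 1.20 ± 0.10 (SD, n = 2 arrays). That is larger than the spread of either gene, and it does not depend on how an array was centred. No exact test can support such a pair of values, since the smallest two-sided p that 2 arrays allow by exact sign flipping is 0.5.

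The second glycogen synthase gene, GSY1, had a value on array 1 alone, of -0.27. This was close to the median of that array (-0.20), and 42.5% of the genes there were lower. GPH1, the glycogen phosphorylase gene, had no value, so the set holds no measurement of glycogen breakdown.

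The genes of the shared precursor did not lie together. PGM2, the major phosphoglucomutase gene, had 1.10 on array 1, a 2.15-fold ratio, and no value elsewhere. Of the 2520 genes on that array, 97.1% were lower and 3.57% reached 2-fold on the positive side. UGP1, the UDP-glucose pyrophosphorylase gene, had 0.04 on array 1 and -0.22 on array 2. Its mean of -0.09 ± 0.18 (SD, n = 2 arrays) lay on both sides of 0 within its spread, with a limma adjusted p of 0.84. Centring each array on its own median put UGP1 at 0.13, on the other side. GSY2 stood above UGP1 by 1.90 on array 1 and by 2.23 on array 2.

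**Figure D2:**
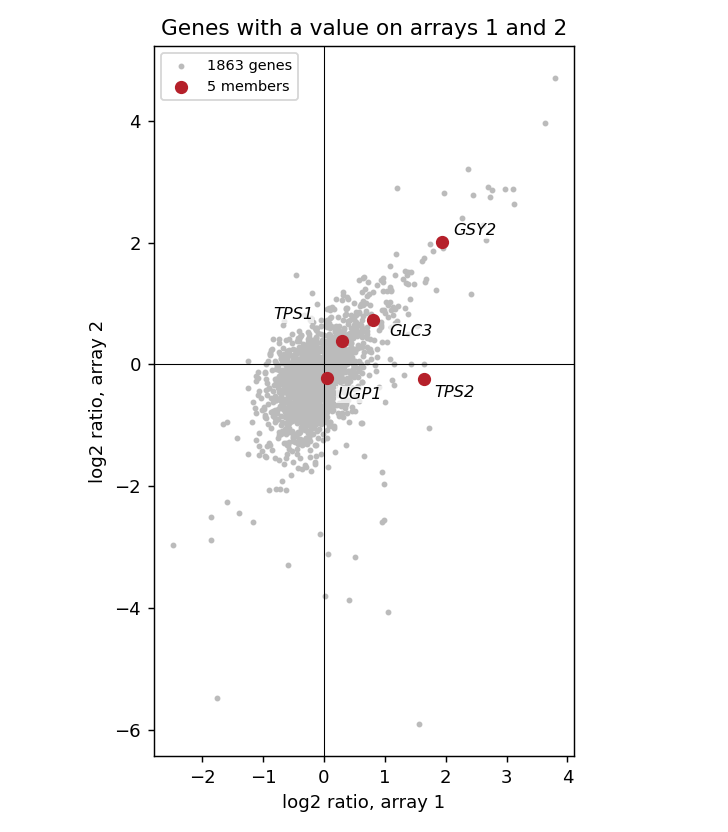
Log2 ratio on array 1 (horizontal) against array 2 (vertical) for the 1863 genes with a value on both (grey), with the 5 members measured on both in red. GSY2 (1.94, 2.01), GLC3 and TPS1 lie where both arrays have the same sign and a similar size, and TPS2 (1.64, -0.24) lies away from them.

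Trehalose is made in 2 steps by a complex of Tps1, the synthase, and Tps2, the phosphatase, with the regulatory subunits Tsl1 and Tps3. TPS1 had 0.29 on array 1, 0.38 on array 2 and 1.17 on array 4. Each of these was positive, and the value on array 4 stood well above the other values, which lay close together. On their own arrays these values lay above 84.2%, 86.4% and 93.3% of genes. The mean was 0.62 ± 0.48 (SD, n = 3 arrays), a 1.53-fold ratio. In the fit that respects shared cultures (limma over 585 genes on all 3 arrays, keeping the larger p of both possible pairings), TPS1 had an adjusted p of 0.409, and 0 of the 585 genes (0%) passed, with 67 at an unadjusted p under 0.05. With separate replicates over 1899 genes its adjusted p was 0.175. Without array 4 its mean was 0.34.

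TPS2 had 1.64 on array 1 and -0.24 on array 2. The first value lay above 98.7% of the genes on its array and the second near the middle of its array, above 49.0%. The gap of 1.88 between these arrays was the 17th largest among the 1863 genes measured on both, whose median gap was 0.32. The mean of 0.70 ± 1.33 (SD, n = 2 arrays, limma adjusted p = 0.34) therefore describes neither array. TPS2 lay above TPS1 by 1.35 on array 1 and below it on array 2 (TPS2 minus TPS1, -0.62), so the order of these partners was not settled. TSL1, the large regulatory subunit gene, had no value. NTH1, the neutral trehalase gene, had 1.06 on array 1, a 2.08-fold ratio above 96.8% of genes, and no value on another array.

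PGM2 and NTH1 both passed 2-fold on the only array that measured them. Among the 626 genes measured on array 1 and no other, 17 did so on the positive side, or 2.72%. With 1 array there is no replicate check of either value. Together with GSY2 and TPS2, 4 of the 8 genes measured on array 1 reached 2-fold on the positive side, where 3.57% of all genes did so. On array 2 this held for 1 of 5, GSY2, where 3.79% of all genes did so. On array 4 it held for TPS1, the only gene of the set with a value there, and for 9.72% of all genes; 56.7% of all genes on array 4 were positive.

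In the order of means, GSY2 came first, followed by GLC3, TPS2, TPS1 and UGP1. This order rests on the sign of array 1: with that sign turned, TPS1 came first at 0.42, followed by GSY2 at 0.03, GLC3 at -0.040, UGP1 at -0.13 and TPS2 at -0.94. The first step, from GSY2 to GLC3, was many times its spread over shared arrays. GLC3 and TPS2 differed by 0.07 ± 1.27 and TPS2 and TPS1 by 0.37 ± 1.40 (SD, n = 2 shared arrays each), both within their spread. TPS1 exceeded UGP1 by 0.42 ± 0.25 on arrays 1 and 2, with the same sign on each and a size above the spread. Over the 5 genes the median of the means was 0.70, against -0.19 over all 1899 genes. GSY2, GLC3 and TPS1 were positive on every array measured (3 of 5, against 18.5% of all genes) and 0 of 5 were negative on every array (against 45.9%). With the sign of array 1 turned, the median was -0.04.

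The other enzymes of these pathways were measured thinly. Of 9 listed genes, 3 had a value: PGM1, PGM3 (PRM15 in the reference) and NTH2. GLG1 and GLG2, which prime glycogen synthesis, GDB1, the debranching enzyme gene, SGA1, the sporulation glucoamylase gene, TPS3 and ATH1, the acid trehalase gene, had none. PGM1, the minor phosphoglucomutase gene, had -0.39 on array 1 and -0.12 on array 2, a mean of -0.26 ± 0.19 (SD, n = 2 arrays, limma adjusted p = 0.51). NTH2, the paralogue of NTH1, had -0.40 and PGM3, a phosphoribomutase gene related to PGM1 and PGM2, had 0.02, both on array 1 alone.

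Isoenzyme genes of 4 reactions could be set side by side on array 1, a grouping made after these values were seen. In glycogen synthase, GSY2 exceeded GSY1 by 2.21. In phosphoglucomutase, PGM2 exceeded PGM1 by 1.497. In neutral trehalase, NTH1 exceeded NTH2 by 1.45. In these 3 reactions the higher gene lay past 2-fold on the positive side and the lower one between -0.40 and -0.27, at or a little below the array's median of -0.20. The glucose kinases did not show this: GLK1 had 0.53, short of 2-fold, and HXK2 and HXK1, at 0.13 and 0.04, were lower by 0.40 and 0.49 but positive. EMI2, a glucokinase paralogue, had 0.02. PGM3, related to the phosphoglucomutase genes but not paired here, also had 0.02, outside the range of the lower genes. The differences within the 3 reactions come from 1 array and have no replicate check, but centring cannot alter them. The genes of such pairs are similar in sequence. Probe sequences were not used here, and signal shared between paralogues was not tested.

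**Figure D3:**
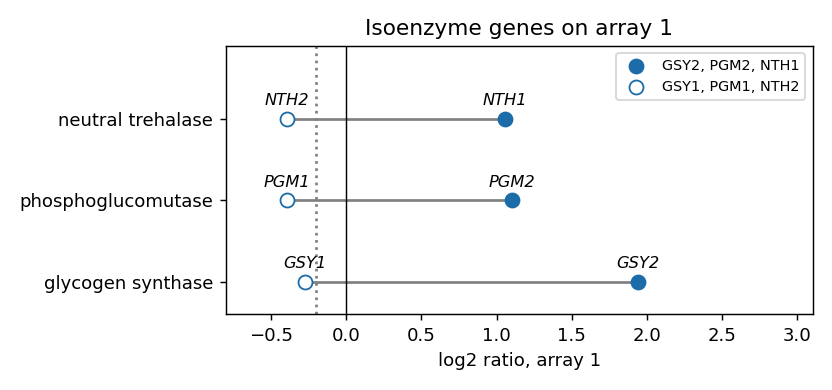
Log2 ratio on array 1 (horizontal axis) for paired genes of 3 of the 4 reactions compared; filled circles are GSY2, PGM2 and NTH1, open circles are GSY1, PGM1 and NTH2, and the dotted line is the median of all genes on that array. The filled circles lie at 1.06 to 1.94 and the open circles at -0.40 to -0.27.

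Enzymes that supply or use glucose 6-phosphate lay mostly close to 0. All 5 measured genes of 6 listed had at least 2 values, with a median of -0.03. In the limma test with separate replicates 0 passed, where 2.53% of all genes did on either side. GLK1, the glucokinase gene, was highest, with 0.53 on array 1 and 0.82 on array 2 (mean 0.68 ± 0.20, SD, n = 2 arrays, adjusted p = 0.171). HXK2, the main hexokinase gene on glucose, had 0.13, -0.64 and -0.16 on arrays 1, 2 and 4 (mean -0.22 ± 0.39, SD, n = 3 arrays). GLK1 exceeded HXK2 by 0.40 on array 1 and by 1.46 on array 2. HXK1, EMI2, a glucokinase paralogue, and PGI1, the isomerase gene, averaged -0.03 ± 0.10, 0.06 ± 0.06 and -0.06 ± 0.08 (SD, n = 2 arrays each). ZWF1, the gene of the first enzyme of the pentose phosphate pathway, had no value.

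Regulators of the enzymes lay about where all genes did by the median of their means, but not on each array. Their medians were -0.003, -0.41 and -0.29 on arrays 1, 2 and 4 (10, 8 and 4 genes). Those of all genes were -0.20, -0.22 and 0.09. Of 23 listed genes 11 had a value and 8 had at least 2, with a median of -0.16 against -0.19 over all genes. On every array measured 1 of the 8 was positive and 3 were negative, where 18.5% and 45.9% of all genes were. With separate replicates 0 passed the limma test, where 2.53% of all genes did on either side. PCL8, the gene of a cyclin of the kinase Pho85 that phosphorylates and so inactivates glycogen synthase, had -0.32, -0.52 and -0.41 on arrays 1, 2 and 4. These 3 values lay close together (mean -0.42 ± 0.10, SD, n = 3 arrays), below the median of each array, with a limma adjusted p of 0.595 over both pairings and 0.204 with separate replicates. PCL10, a second such cyclin gene, had -0.62 on array 1. GLC7, the catalytic subunit gene of the phosphatase that activates glycogen synthase, had -0.21, 0.06 and -0.10 on arrays 1, 2 and 4, and GLC8, a regulator of that phosphatase, had 0.37, -0.45 and -0.17. PIG1, a gene for a targeting subunit of the phosphatase, had -0.92 on array 4 alone. SNF4, encoding a subunit of the Snf1 kinase, averaged -0.43 ± 0.57 and SNF1 itself -0.29 ± 0.43, each near 0 on array 1 and lower on array 2 (-0.84 and -0.59). DCS1, a scavenger decapping enzyme known as an inhibitor of trehalase Nth1, had 0.73 on array 1 and 0.22 on array 2 (mean 0.48 ± 0.36, SD, n = 2 arrays, adjusted p = 0.277). MSN2 and MSN4 had no value.

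General stress response genes, many of which share Msn2 and Msn4 as activators with the set, were mostly positive where they had at least 2 values. Of 20 listed genes 16 had a value and 10 had at least 2, with a median of 0.74. The median of 0.70 for the glycogen and trehalose genes is the mean of TPS2, whose arrays lie far apart, and the same 5 genes had medians of 0.81 on array 1 and 0.38 on array 2. All stress genes with a value had medians of 0.79, 0.70 and 0.48 on arrays 1, 2 and 4 (14, 9 and 8 genes). On every array measured, 8 of the 10 stress genes with at least 2 values were positive (18.5% of all genes) and 0 were negative (45.9% of all genes). In the test with separate replicates 3 of the 10 passed, all on the positive side, as did 1.79% of all genes: TFS1, GTT1 and HSP42, a small heat shock protein gene. In the limma fit over both culture pairings TFS1 and GTT1 did not pass (adjusted p = 0.224 and 0.285), and HSP42, with no value on array 4, was not tested there. Genes with 1 value do not enter these counts, lay on both sides and were named after their values were seen. On array 1 HSP12 had 1.76, ALD3 1.62, HSP26 -0.03 and GAD1 -2.21. On array 4 SSA4 had 0.50 and SPI1 -2.69. The values of SPI1 and GAD1 are the lowest ratios of the list. The 3 array values of GPP2 (HOR2 in the list), a glycerol phosphatase gene, were 0.43, 0.37 and 0.47 (mean 0.42 ± 0.05, SD, n = 3 arrays, limma adjusted p = 0.585 over both pairings). GRE3, an aldose reductase gene, spread from 0.78 on array 1 to -1.54 on array 4, and SOD2, the mitochondrial superoxide dismutase gene, averaged 0.06 ± 0.31 (SD, n = 3 arrays). These values stand beside those of the set as a description, and the difference between the lists was not tested.

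**Figure D4:**
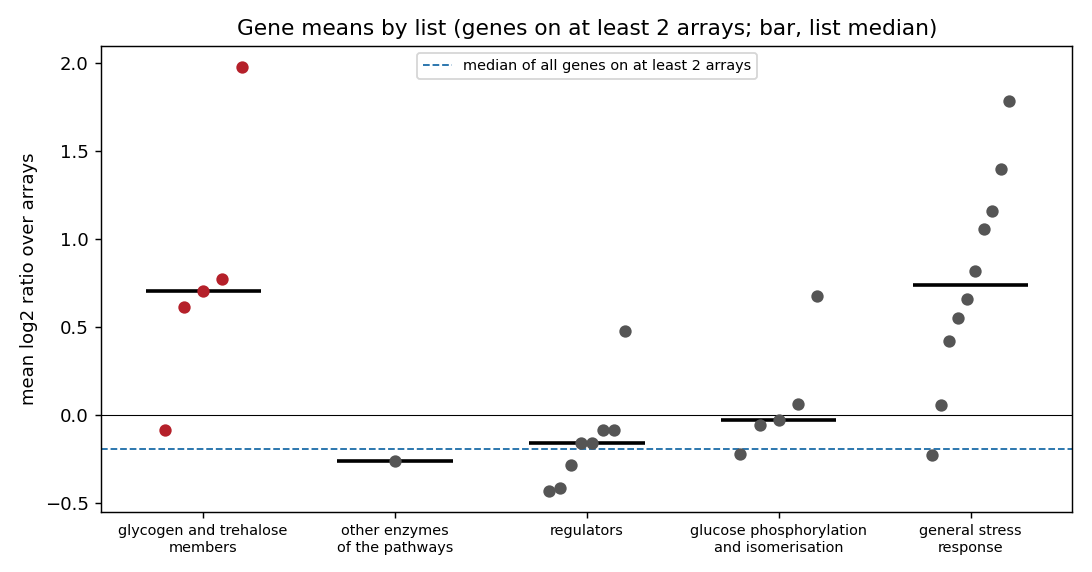
Mean log2 ratio (vertical axis) of each gene with values on at least 2 arrays, by list, with bars at the list medians and a dashed line at the median of all such genes (-0.19). The 5 glycogen and trehalose genes have a median of 0.70 and the 10 stress response genes one of 0.74, while the regulators (-0.16) and the glucose phosphorylation genes (-0.03) lie nearer the dashed line. The 0.70 is the mean of TPS2, which had 1.64 on array 1 and -0.24 on array 2.

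The genes whose ratios lay nearest to TPS1 and to the median profile of the set were found by Euclidean distance. For TPS1, over 3 arrays and 584 other genes, they were ITT1 (distance 0.16, with 0.21, 0.30 and 1.27 on arrays 1, 2 and 4), ADH6 (distance 0.23) and SNF11 (distance 0.26). For the median profile of the 5 members measured on arrays 1 and 2 (0.81 and 0.38), among 1858 other genes, they were YSR3 (distance 0.02), SLT2 (0.07), SAM2 (0.11), STE18 (0.14) and EXG2 (0.14). SLT2, the gene of the MAP kinase of the cell wall integrity pathway, had 0.75 on array 1 and 0.42 on array 2. No member has the median profile itself: its 0.81 is the array 1 value of GLC3, which had 0.73 on array 2. Its 0.38 is the array 2 value of TPS1, which had 0.29 on array 1. Only 3 or 2 points enter each distance.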

How the data were processed

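The authors deposited 1 table of log ratios, 1 value per row and array, read here as log2. Per the labels, total RNA was reverse transcribed with Cy3 or Cy5 into cDNA and treated and untreated cDNA were hybridised together. The sources used here give no scanner, normalization, spot filter, log base, centring or direction. Base 2 was assumed, and all columns were read as having one direction. Of 6209 rows, 5654 were named by locus tag and 57 by synonym through the RefSeq table of assembly R64, while 498 went unmatched. Coordinates are not printed because the array's build is not stated, and signal intensities and sequences were not used here.

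Ratios were tested against 0 with limma 3.58.1 (R 4.3.3; lmFit, eBayes, Benjamini-Hochberg over all genes, threshold 0.05). One fit covered the 585 genes on all 3 arrays, with array 1 averaged with array 2 or with array 4 and the larger p kept; each had 1 residual degree of freedom per gene. The other covered the 1899 genes on at least 2 arrays, each array a replicate. Its p-values are too small where arrays share a culture. The SD mixes technical and biological spread, and the number of arrays limits the precision. The scripts were tested on simulated data. Members, lists and tests were chosen with earlier results of these data known. Named were all 10 members, all other pathway enzymes, and up to 6 genes per further list by number of values and size. TFS1, GTT1 and HSP42 fall among the latter. PCL10, PIG1, HSP12, ALD3, HSP26, SSA4, SPI1 and GAD1, each with a value on 1 array, were named outside this rule.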

Additional observations from a re-analysis of the deposited data

How the results depend on the processing

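No gene on all 3 arrays passed under 6 alternatives, but 17 did after scaling the arrays to one spread, 2 with 3 separate replicates, 2 when a dye term was added to that fit. Leaving out 1 array tested the genes on both remaining arrays instead and called 17 of 590 genes when array 1 was dropped, 0 of 616 when array 2 was and 209 of 1863 when array 4 was. The 48 calls among genes on at least 2 arrays became 78 after centring, 0 with array 1 turned, 0 without moderation (201 genes had an unadjusted p under 0.05) and 0 to 209, in the same 3 fits, with 1 array left out. Of the 5 members with at least 2 values, 1 (GSY2) was past 2-fold on one side on every array measured. This count became 0 of 5 with array 1 turned and 2 of 5 at 1.5-fold (GLC3 being added). It was 0 to 1 with 1 array left out, where 1 or 5 members could be counted. The median of the members was 0.92 after centring, -0.040 with array 1 turned, and 0.70 to 0.78 with 1 array left out (TPS1 alone without array 1 or 2). Of 40 alternatives for single members 35 kept the sign. The exceptions were GLC3 (-0.040) and TPS2 (-0.94) with array 1 turned, TPS2 with 1 array left out (-0.24 to 1.64, -0.24 being without array 1), and UGP1 after centring (0.13) and with 1 array left out (-0.22 to 0.045, 0.045 being without array 2). The kept signs say little where all arrays already share one. Nor could the sign change where an alternative left the mean as it was. That held for each change in the moderation of variances. It also held for leaving out array 4 in GSY2, GLC3, TPS2 and UGP1, which had no value there. TPS1 passed under no alternative. Each ratio already pairs treated and untreated cells of one culture, and no further replicate block was possible because the arrays form 1 group. Signal over background is unknown, and 4 of the 5 members with more than 1 value rest on arrays 1 and 2.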
